A study of Mus musculus with 25 samples.

Results

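The response of sorted cortical neurons to a spinal cord crush (SCI) at day 3 was compared between mice with and without the repressor REST. The quantity followed throughout is the genotype by injury interaction, the day 3 less sham difference in REST cKO libraries less the same difference in WT libraries, on a log2 scale. A positive interaction means that day 3 stood further above sham, or less far below it, in REST cKO than in WT. The comparison was formed from the groups named in the sample labels, and it holds 14 of the 25 libraries. They are WT sham (n = 4, libraries 3, 10, 14 and 17), WT SCI day 3 (n = 3, libraries 5, 16 and 22), REST cKO sham (n = 3, libraries 6, 18 and 23) and REST cKO SCI day 3 (n = 4, libraries 9, 15, 20 and 27). Values are listed in that order of libraries wherever they are given per library. All mice were adult C57BL/6 animals of either sex with floxed *Rest* alleles and a TdTomato reporter that Cre switches on. WT animals carried these alleles too and received AAV-Syn-GFP in the sensorimotor cortex, and REST cKO animals received AAV-Syn-Cre there. Cells were sorted by GFP in WT and by TdTomato in REST cKO, so genotype cannot be told apart from the virus or the sorted label. Both viruses use the synapsin promoter, so deletion of *Rest* was directed to infected neurons, and the controls received no Cre. SCI was a complete crush at the thoracic level, which cuts the axons of corticospinal neurons far from their cell bodies, and sham animals carry day 0 in the labels. The libraries were made from small sorted pools with a 3′ mRNA-seq kit. The labels do not say which libraries share an animal, so the errors given measure the spread between libraries.

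REST (RE1-silencing transcription factor) is a zinc finger protein that binds a DNA element called RE1 and recruits corepressors with histone deacetylases and demethylases. In non-neuronal cells it keeps genes for synaptic proteins, ion channels and neuropeptides silent, and its level falls as neurons mature. In adult neurons it returns under stress, ischaemia or seizures, and loss of REST is therefore asked about as a way to free growth genes after injury. The day 3 interaction asks whether the injury response of any gene differs when REST is absent.

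RE1 is built of a left and a right part. The windows from 250 bases before to 50 bases after the start site of each gene, taken from RefSeq (GRCm38.p6), were searched on both strands for the left part, TCAGCACC, and for both parts at their usual spacing, AGCACCNNGGACAG, which shares the letters AGCACC with the left part. The left part was in the window of 500 of 27025 genes (1.85%), and both parts were in 16 (0.0592%). Of the REST target list described below, 20 measured genes had a window, and 5 of them (*Celsr3*, *Scg2*, *Syn1*, *Tubb3* and *Unc13a*) held the left part while *Gria2* held both parts. Among the genes with the smallest interaction p-values, 1 of 9 negative ones with a window (*Foxp1*) and 0 of 10 positive ones held the left part. These stretches are shown because they hold letters of the RE1 element in REST targets and in *Foxp1*. *Gria2* matched the spaced letters of both parts, without the complete left part. Capitals mark the searched letters, and each is written 5′ to 3′ on the strand of its gene, so that GGTGCTGA is the left part on the other strand.
Gria2: ccaaagcgCTGTCCGCGGTGCTaaaatcga
Syn1: cactgtcggatTCAGCACCgcggtcagagc
Celsr3: cccagctccgtTCAGCACCgtgggcagcac
Tubb3: atctcggtgccGGTGCTGAtgctgcagagc
Scg2: aggagctgtccGGTGCTGAaacggcccgag
Foxp1: gatcccgggaaGGTGCTGAgactaaggctc
The stretches lie at chr3:80802984-80803013 (*Gria2*, minus strand), chrX:20921131-20921160 (*Syn1*, minus), chr9:108825908-108825937 (*Celsr3*, plus), chr8:123411421-123411450 (*Tubb3*, plus), chr1:79440015-79440044 (*Scg2*, minus) and chr6:99520955-99520984 (*Foxp1*, minus). A match of letters describes the window and says nothing of binding in these cells.

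The table gives 9931 named genes as log2 normalized counts, and it holds no read totals, so depth per library is unknown. In library 5 of WT SCI day 3, 29.5% of the values lay under -2, against 3.85% to 12.1% in the other 13 libraries. Although the labels call the cells cortical motor neurons, markers of microglia, the macrophages of the brain, stood higher than neuronal ones in all 14 libraries. The mean level of 12 microglial markers ranged from 2.83 to 3.39, and that of 8 pan-neuronal markers from -0.33 to 2.35. The cathepsin gene *Ctss* ranked 2nd of all genes by mean level (4.37) and the light chain gene *Igkc* 3rd (4.36), whereas the synaptic genes *Syt1* and *Snap25* ranked 200th and 483rd. Of 8 deep layer and corticospinal markers, 5 were measured, with *Bcl11b*, a regulator of corticospinal identity, at a mean of 0.68. All 3 REST cKO sham libraries came from males, while the other 3 groups held both sexes.

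*Rest* itself (chr5:77265491-77286432, GRCm38) was at -0.55, -0.26, -0.39 and -1.55 in WT sham and at 1.64, 2.88 and 0.56 in WT SCI day 3. It was at -2.65, -0.79 and -0.52 in REST cKO sham and at -0.04, -0.31, -0.24 and -1.61 in REST cKO SCI day 3. All 3 WT day 3 libraries lay above every WT sham library, and the REST cKO groups overlapped. The genotypes overlapped for *Rest* in sham (-1.47 ± 0.99, adjusted p = 0.83, limma), and at day 3 every REST cKO library lay below every WT library. Group means gave an interaction of -1.61, while the model with the 2 sequencing components gave -0.15 ± 1.50 (SE, adjusted p = 0.999, limma). Fitted values differ from group means in many genes. Over the 25 libraries 9791 genes correlate with neither component by more than 1e-05, and *Rest* belongs to the 140 that do. Those 140 also include *Jun*, *Smad1*, *Sox11*, *Stat3*, *Atf3*, *Egr1*, *Pcna*, *Atf2*, *Mapkapk2* and *Klf4*, for which the interaction from group means is given where they are described. Why these values differ from the others was not tested.

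No gene had an interaction past the threshold of an adjusted p of 0.1 (0 of 9931 genes, 0%, limma with Benjamini-Hochberg adjustment). The smallest adjusted p was 0.883. At an unadjusted p under 0.05 there were 511 genes (5.15%), 287 positive (2.89% of all genes) and 224 negative (2.26%). This share is near the one that the threshold gives when no gene has an interaction. The median SE of an interaction was 1.60 on the log2 scale, and the middle 50% of interactions ran from -0.86 to 0.96. The responses that make up the interaction gave few calls as well. In WT, 1 gene (0.0101%) passed at day 3 against sham, the transcription factor gene *Foxp1*, which rose by 1.86 ± 0.34 (SE, adjusted p = 0.0970, limma). The group means of *Foxp1* differed by 1.35, and without the components, with the 4 groups alone, a batch term, library weights, no trend or quantile normalization no gene passed. In REST cKO, 2 genes (0.0201%) passed. *N4bp2l2* rose by 3.93 ± 0.70 (adjusted p = 0.0751) and *Rpl3-ps1*, a processed pseudogene of a ribosomal protein gene rose by 4.94 ± 0.93 (adjusted p = 0.0826). Without the components or with a sex term or no trend, 0 genes passed in REST cKO, and with a batch term 1. How reads were divided between *Rpl3-ps1* and its parent *Rpl3*, whose interaction was -0.61, was not tested. At an unadjusted p under 0.05 the counts were 685 genes in WT and 462 in REST cKO. Both responses use the same sham groups as the interaction. Between genotypes in sham, 3 genes (0.0302%) passed, all lower in REST cKO: the immunoglobulin gene *Igha* (-1.0 ± 0.18), *N4bp2l2* (-3.96 ± 0.73) and *Rpl3-ps1* (-5.19 ± 0.97), each with an adjusted p of 0.0511 (limma). At day 3 the genotype differences of *N4bp2l2* and *Rpl3-ps1* were -0.26 ± 0.68 and 0.59 ± 0.91 in the fit, and -0.96 and -0.33 from group means, so that the sign for *Rpl3-ps1* depends on the components.

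**Figure D1:**
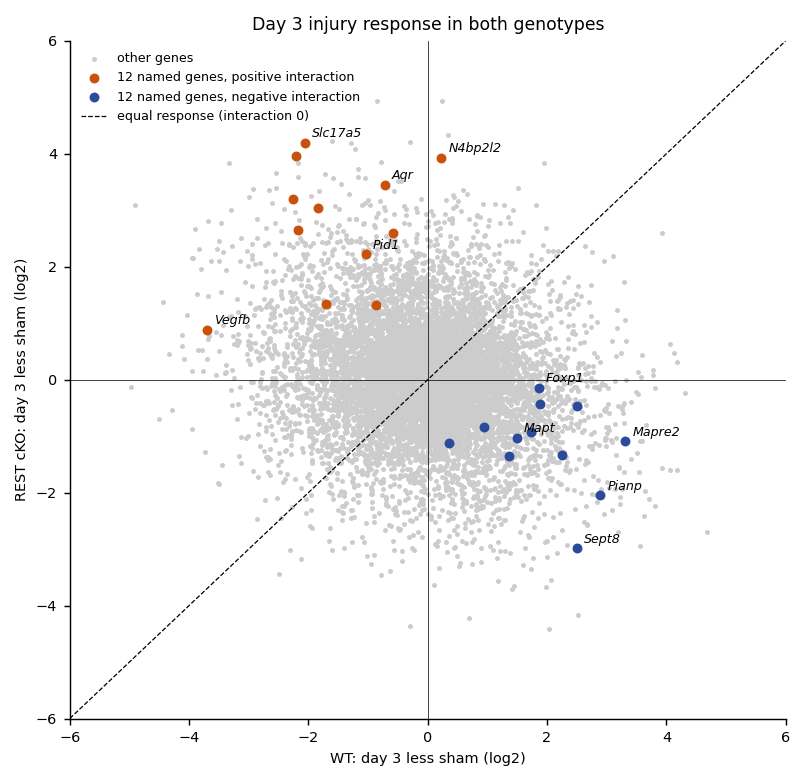
Day 3 less sham in WT (x axis, log2) against day 3 less sham in REST cKO (y axis, log2), 1 point per gene for 9931 genes, with the 12 named genes of each direction in colour and the line of equal response dashed. The named positive genes sit above the line and the named negative genes below it because they were chosen by their interaction, and *Slc17a5* lies at -2.06 in WT and 4.19 in REST cKO.

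The genes are named by a rule: the 12 smallest p-values in each direction among genes with a mean of at least 0 in the 14 libraries, no correlation with a component and the same sign whichever library was left out, with pseudogenes (such as *Rpl3-ps1*, interaction 5.78 ± 1.47), genes known only by a clone number and sex-linked markers left out. Their adjusted p-values ran from 0.883 to 0.912 (limma), so none passed, and their values are a description of the genes at the edge of the distribution. The components bear on their size: the interaction from group means had the same sign in all 24 but was smaller, with the fitted value 1.33 to 2.06 times as large and over 1.5 times as large in 17. From group means it was -1.89 for *Mapt*, -1.01 for *Foxp1*, -1.86 for *Zfand5* and -2.39 for *Mapre2*. It was 2.04 for *Pid1*, 1.85 for *Nek6*, 2.63 for *Erh*, 3.09 for *Cmc1* and 3.66 for *Hars2*.

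The 12 genes with negative interactions had varied functions. The smallest p of all belonged to *Mapt* (chr11:104231390-104332090), which encodes the axonal microtubule protein tau. *Mapt* was at 0.99, 1.59, 1.52 and 1.42 in WT sham and at 1.82, 3.33 and 2.50 in WT SCI day 3. It was at 2.84, 2.20 and 2.50 in REST cKO sham and at 1.74, 1.76, 1.79 and 1.88 in REST cKO SCI day 3. In WT every injured library lay above every sham library, and in REST cKO every injured library lay below every sham library, with no overlap either way. The interaction was -2.52 ± 0.59 (SE, unadjusted p = 0.000218, adjusted p = 0.883, limma).

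*Olfm1* encodes noelin, a secreted glycoprotein of neurons that binds AMPA receptors. It was at 1.99, 2.17, 1.90 and 2.90 in WT sham, at 2.85, 2.97 and 2.77 in WT SCI day 3, at 2.99, 2.69 and 2.88 in REST cKO sham and at 2.19, 1.94, 2.88 and 2.22 in REST cKO SCI day 3. Library 17 of WT sham and library 20 of REST cKO SCI day 3 sat with the higher groups, so the groups overlapped in both genotypes, and the interaction was -1.79 ± 0.47. *Foxp1*, a forkhead repressor of neuronal and immune cells, was at 1.76, 1.72, 1.45 and 2.61 in WT sham and at 3.70, 3.27 and 2.74 in WT SCI day 3. In REST cKO it was at 2.51, 1.68 and 2.07 in sham and at 1.83, 2.43, 2.37 and 3.08 at day 3. The WT groups did not overlap and the REST cKO groups did, with an interaction of -2.0 ± 0.53 and a fitted REST cKO response of -0.14 ± 0.33. From group means the interaction was -1.01 and the REST cKO response 0.34, of the other sign.

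*Slc22a17*, which encodes a receptor for the iron carrier lipocalin 2, had the same shape. It was at 0.19, 1.76, 1.20 and 1.45 in WT sham, at 2.26, 3.17 and 2.70 in WT SCI day 3, at 2.41, 1.66 and 2.10 in REST cKO sham and at 1.90, 2.46, 1.30 and 2.12 in REST cKO SCI day 3. WT groups were apart, REST cKO groups overlapped, and the interaction was -2.31 ± 0.67. *Zfand5*, a zinc finger protein that acts on the proteasome, went from a mean of 0.64 to 2.58 in WT and from 1.64 to 1.72 in REST cKO, with an interaction of -1.86 from these means and of -2.98 ± 0.89 with the components. *Ank2*, the ankyrin that ties membrane proteins to the axonal skeleton, was at 0.14, 0.63, 0.52 and 1.79 in WT sham and at 0.99, 1.89 and 2.37 in WT SCI day 3. In REST cKO it was at 2.28, 2.07 and 1.29 in sham and at 1.11, 1.07, 0.83 and 0.56 at day 3, where the groups did not overlap, and its interaction was -2.73 ± 0.84.

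Genes with larger negative interactions included libraries at very low values. *Sept8*, a septin of the cytoskeleton, had an interaction of -5.48 ± 1.58, and its WT sham values were 0.08, -2.84, 0.61 and 0.49. *Mapre2*, a protein of growing microtubule ends, had -4.40 ± 1.26 with WT sham values of 0.96, -3.12, -0.07 and 0.31. Library 10 of WT sham was the low one in both genes, and leaving out any 1 library gave -6.27 to -4.32 for *Sept8* and -6.24 to -3.14 for *Mapre2*. *Pianp*, a neuronal membrane protein, had -4.93 ± 1.50, with WT sham at -2.80, 0.49, -1.38 and 0.81 and REST cKO sham at 1.98, 2.07 and 2.04. The other negative genes were *Mtch1* (-2.65 ± 0.84) and *Aifm3* (-3.58 ± 1.15), both of mitochondria, and *Mt2* (-1.48 ± 0.47), which encodes a metal-binding stress protein. *Mt2* was at 3.28, 2.82 and 2.98 in REST cKO sham and at 1.67, 2.73, 2.03 and 1.91 at day 3, without overlap, while the WT groups overlapped.

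The positive interactions fell on genes of varied function, and in most of them REST cKO sham held the low values. *Pid1* (chr1:84036296-84364180), an adaptor protein of lipoprotein receptor and insulin signalling, was at 1.82, 2.20, 1.99 and 1.25 in WT sham and at 1.18, 0.90 and 2.12 in WT SCI day 3. It was at -0.28, 0.31 and 0.25 in REST cKO sham and at 1.28, 1.90, 2.07 and 1.64 in REST cKO SCI day 3. The 3 REST cKO sham libraries were lower than the other 11, and the interaction was 3.26 ± 0.76 (SE, unadjusted p = 0.000231, adjusted p = 0.883, limma).

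*Aqr*, a helicase of the spliceosome, was at 1.91, 1.38, 1.70 and 1.08 in WT sham, at 2.61, 0.50 and 1.45 in WT SCI day 3, at -1.28, -1.09 and -0.91 in REST cKO sham and at 2.30, 0.23, 2.50 and 1.66 in REST cKO SCI day 3. *Nek6*, a kinase of mitosis, was at 1.61, 1.74, 1.60 and 1.73 in WT sham, at 1.97, 1.55 and 1.78 in WT SCI day 3, at -0.83, -0.61 and -0.30 in REST cKO sham and at 1.04, 1.08, 2.26 and 1.09 in REST cKO SCI day 3. In both genes REST cKO sham stood below every other library. Their interactions were 4.18 ± 1.17 and 3.17 ± 0.99. *Slc17a5*, the exporter of sialic acid from lysosomes, was at -3.43, -0.75 and -2.06 in REST cKO sham and at 0.90, 0.90, 1.08 and 1.49 at day 3, against 1.77, 0.94, 0.95 and 0.35 in WT sham and 0.81, -1.64 and 0.89 in WT SCI day 3. Its interaction, 6.25 ± 1.57, was the largest of the 24.

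*Vegfb*, a growth factor that binds the receptor FLT1, was low in WT SCI day 3 instead. It was at 2.42, 2.11, 1.55 and 0.81 in WT sham and at -2.97, -1.24 and 0.92 in WT SCI day 3, while REST cKO sham was at 0.56, 2.17 and 2.31 and REST cKO SCI day 3 at 2.22, 1.57, 1.44 and 1.67. Its lowest value was in library 5, and the interaction was 4.59 ± 1.31. *N4bp2l2* was at -2.88, 0.71 and -1.13 in REST cKO sham and at 2.50, 3.31, 1.12 and 1.17 at day 3, and its interaction was 3.70 ± 1.11. Without library 6 it was 2.12, and within batches 1 and 2 it was 3.95 and 0.049. The other positive genes were *Cmc1*, an assembly factor of cytochrome oxidase (5.47 ± 1.51), *Hars2*, a tRNA synthetase of mitochondria (6.18 ± 1.74), *Erh*, a factor of RNA processing (4.87 ± 1.36), *Camsap1*, a protein of microtubule minus ends (3.05 ± 0.97), *Susd3* (4.82 ± 1.54) and a variable segment of the immunoglobulin kappa chain (2.18 ± 0.70).

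In 10 of the 12 positive genes and 9 of the 12 negative genes, REST cKO and WT differed by more in sham than at day 3, as they did in 52.9% of all genes. Genotypes were fully apart in sham for 6 positive and 3 negative genes, and at day 3 for 2 and 3, beside 7.86% and 7.59% of all genes. These genes were chosen by the same differences, so the counts describe them and test nothing. Batches 1 and 2 of the labels each held all 4 groups (5 and 6 libraries), and batch 3 held no WT sham library and gave no value. Within each of the 2 batches, all 24 genes had the sign of the pooled interaction, which the way they were chosen favours. *Mapt* gave -1.63 and -2.28, *Pid1* 2.38 and 2.39, and *Foxp1* -2.64 and -0.52 in batches 1 and 2.

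**Figure D2:**
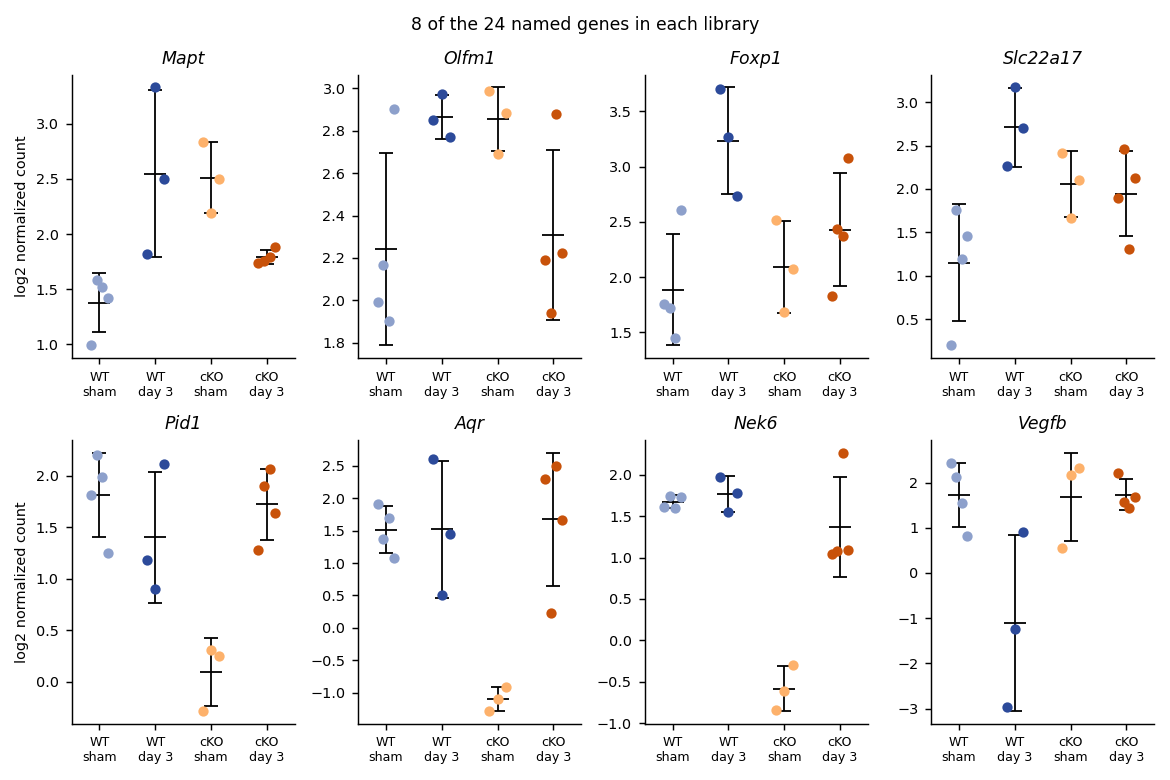
Log2 normalized counts (y axis) of 8 named genes in the 14 libraries, with a point per library and the mean ± SD of each group in black. The upper row holds negative interactions, with *Mapt* between 0.99 and 1.59 in WT sham and between 2.20 and 2.84 in REST cKO sham, and the lower row holds positive ones, with *Pid1* between -0.28 and 0.31 in REST cKO sham.

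In 12 genes the injury response took opposite directions without any overlap between sham and day 3 in either genotype. They were looked for after their values were known. In 5 of them (0.0503% of all genes) REST cKO was higher at day 3 than in sham and WT was lower. In 7 (0.0705%) it was the reverse. With so few libraries per group some genes separate this way by chance, and the counts were not tested against that. The 5 were *Atf3*, *Wdr43*, a ribosome assembly factor, *Mrm2*, a methyltransferase of mitochondrial ribosomal RNA, *Vac14*, a scaffold of phosphoinositide synthesis in endosomes, and *Vwa5a*. The 7 were *Mapt*, *Pianp*, *Hsp90ab1*, *Pcdh7*, *Tgfb2*, *Galnt17* and *Tm7sf2*, and 0 of the 12 passed an adjusted p of 0.1 in the interaction.

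*Wdr43* was at 2.07, 2.16, 2.13 and 1.91 in WT sham, at 1.10, 0.99 and 1.83 in WT SCI day 3, at 0.69, -0.05 and -0.01 in REST cKO sham and at 1.47, 0.99, 1.01 and 1.25 in REST cKO SCI day 3. Its interaction was 2.07 ± 0.89. *Hsp90ab1*, a cytosolic chaperone, was at 3.24, 2.96, 3.42 and 3.36 in WT sham, at 3.55, 3.46 and 3.54 in WT SCI day 3, at 3.45, 3.41 and 3.63 in REST cKO sham and at 2.95, 3.13, 3.41 and 3.35 in REST cKO SCI day 3. The REST cKO groups touched at 3.41 when rounded, and its interaction was -0.94 ± 0.35. *Tgfb2*, a ligand of the TGF-beta family, was at -0.24, -0.32, -0.63 and -1.42 in WT sham and at 2.80, 2.16 and 1.80 in WT SCI day 3, the widest gap between the WT groups among the 12. In REST cKO it was at 1.12, 0.79 and 0.78 in sham and at -3.23, -0.07, -0.24 and 0.69 at day 3. The interaction of *Tgfb2*, -5.20 ± 1.61, carries the limit given for *Rest*, since it and *Tm7sf2* also correlate with a component.

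Gene lists were drawn up for the pathways that REST or injury is known to touch, and each is described by counts and by the median interaction of its measured members, beside a median of 0.03 over all 9931 genes and 48.8% negative interactions. Of these, 11 lists hold neuronal genes: REST targets, synaptic vesicle, receptors, voltage-gated channels, axon guidance, tubulins, cAMP signalling, and pan-neuronal, excitatory, inhibitory and deep layer markers. They were formed of 214 distinct genes, of which 167 (78.0%) had a negative interaction, with a median of -0.95. In these 214 genes, 20 negative interactions (9.35%) and 0 positive ones had an unadjusted p under 0.05, beside 2.26% and 2.89% over all genes, and 0 passed the adjustment. The 11 lists were put together after their values were seen.

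REST targets, neuronal genes in which RE1 elements have been described, were the list closest to the question. Of 36 listed genes 32 were measured, 24 had a negative interaction and 8 a positive one, and the median was -0.95. Of the measured members 5 (15.6%) had an unadjusted p under 0.05, all negative: *Chgb*, *Grin1*, *Stmn2*, *Snap25* and *Syn1*. The median response was 0.58 in WT and -0.74 in REST cKO. Between genotypes, the median was 0.92 higher in REST cKO in sham and 0.07 lower at day 3, on the log2 scale. The mean level of the list was -0.64, 0.59, 0.37 and 0.41 in WT sham. In REST cKO sham it was 1.47, 0.35 and 1.10, so the genotypes overlapped in sham.

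*Chgb*, a granin of dense core vesicles, was at 0.61, 0.48, 2.25 and 1.49 in WT sham, at 2.44, 3.69 and 1.11 in WT SCI day 3, at 2.88, 2.74 and 3.21 in REST cKO sham and at 2.83, 2.64, 1.41 and 1.60 in REST cKO SCI day 3. Sham and day 3 overlapped in both genotypes, and the interaction was -2.85 ± 1.01. *Snap25*, a SNARE protein of vesicle fusion, was at 1.13, 2.11, 1.65 and 2.09 in WT sham and at 3.23, 2.92 and 3.21 in REST cKO sham, with no overlap. At day 3 it was at 2.63, 2.99 and 1.66 in WT and at 2.81, 3.34, 1.93 and 2.40 in REST cKO, where the ranges overlapped, and its interaction was -1.66 ± 0.67. *Syn1*, a synapsin that tethers vesicles and a holder of the RE1 letters shown above, was at -0.90, 0.54, 0.91 and 0.62 in WT sham, at 1.55, 1.26 and 1.57 in WT SCI day 3, at 2.15, 1.61 and 2.14 in REST cKO sham and at 0.57, 1.11, 1.62 and 1.03 in REST cKO SCI day 3. Its interaction was -3.07 ± 1.40. *Stmn2*, a regulator of microtubules in growth cones, was lower at day 3 (0.95 to 1.37) than in sham (1.66 to 2.57) in REST cKO, and the WT groups overlapped. The interaction of *Stmn2* was -2.18 ± 0.85, and that of *Grin1*, a subunit of NMDA receptors that correlates with a component, was -4.79 ± 1.77. The other REST targets with RE1 letters in their window ran in both directions, with *Unc13a* at -3.54, *Scg2* at -1.27, *Tubb3* at -0.96, *Gria2* at -0.26 and *Celsr3* at 3.79.

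The machinery of the synaptic vesicle had 29 measured members, of which 23 were negative, 5 of these at an unadjusted p under 0.05 (17.2%), with a median of -1.11. Besides *Snap25* and *Syn1* they were *Slc17a7*, the vesicular glutamate transporter of cortical projection neurons (-1.91 ± 0.63), *Napb*, a partner of the fusion ATPase (-2.32 ± 0.91), and *Syt1*, the calcium sensor of release (-1.65 ± 0.73). *Napb* was at 2.43, 2.25 and 2.60 in REST cKO sham and at 0.12, 0.85, 0.67 and 0.95 at day 3, far apart, whereas WT sham (1.37, 2.10, 1.41 and 2.14) and WT SCI day 3 (0.66, 2.99 and 1.46) overlapped.

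Receptors and channels followed the same order. Of 22 glutamate and GABA receptor genes, 19 were negative (median -0.95), 2 of them at an unadjusted p under 0.05, *Grm7* (-6.05 ± 2.01, with -8.39 in batch 1 and 0.10 in batch 2) and *Grin1*, but 10 of the 22 correlate with a component. Of 32 voltage-gated channel genes, 25 were negative (median -0.96). *Cacna1a*, the pore of the P/Q-type calcium channel, was at -3.11, -2.45, -2.35 and -1.94 in REST cKO SCI day 3 and at 0.87, 1.48 and 1.15 in WT SCI day 3, with no overlap at day 3, and its interaction was -4.54 ± 1.84. *Kcnip3*, a calcium-binding partner of potassium channels, had -3.99 ± 1.88.

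Axon guidance genes (30 measured) held 24 negative interactions with a median of -1.02, 4 of them at an unadjusted p under 0.05. These were the receptor genes *Plxna1* (-5.41 ± 1.84), *Unc5b* (-5.13 ± 2.10), *Epha4* (-3.69 ± 1.49) and *Ephb6* (-3.60 ± 1.67), which bind semaphorins, netrin or ephrins. *Epha4* was at 0.71, -2.99, 0.41 and 0.21 in WT sham and at 3.47, 3.42 and 1.12 in WT SCI day 3, apart, and overlapped in REST cKO (1.60, 0.95 and 0.63, then 0.55, 3.33, 0.86 and 2.49). Tubulins and microtubule proteins (41 measured) held 31 negative interactions with a median of -0.80. Beside *Mapt* and *Stmn2* they included *Map1b* (-1.89 ± 0.75), a microtubule protein of growing axons, and *Kif5c* (-1.82 ± 0.86), a motor of axonal transport. *Map1b* was at 2.77, 3.02 and 2.74 in REST cKO sham, above its day 3 values of 2.18, 1.30, 1.58 and 1.36. Of 28 genes of cAMP signalling, a pathway that promotes axon growth, 21 were negative (median -0.83), with *Pde2a*, a phosphodiesterase, at -1.49 ± 0.70.

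**Figure D3:**
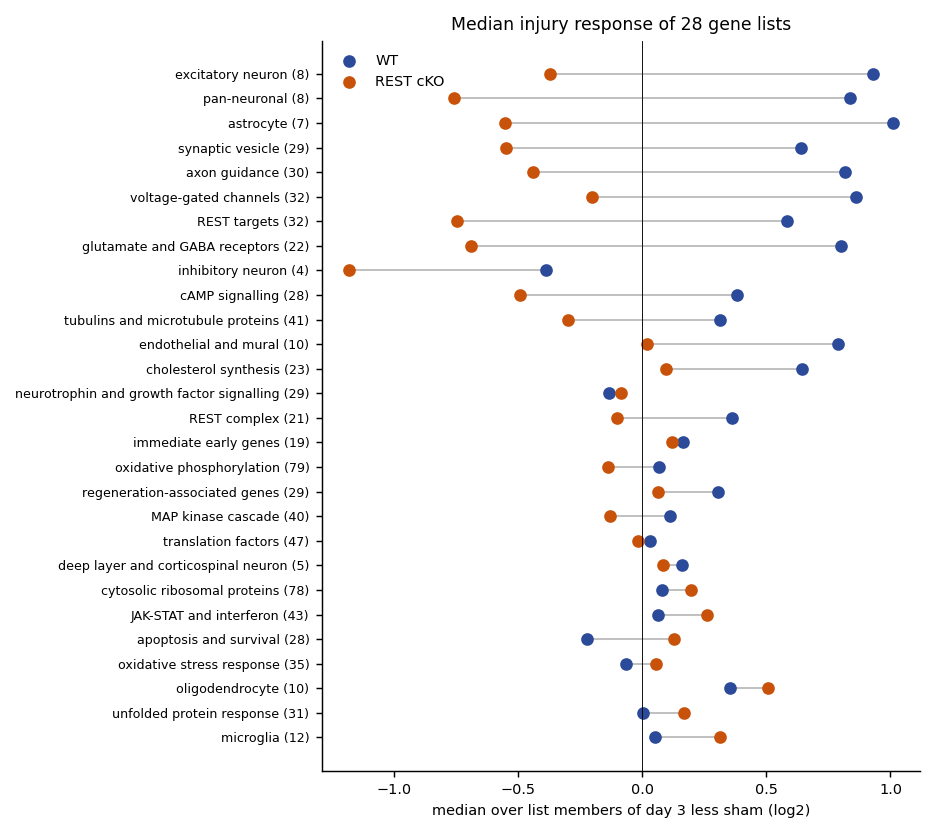
Median day 3 less sham difference (x axis, log2) over the measured members of each of 28 lists (y axis, number of members in brackets), in WT and in REST cKO. For REST targets the WT median is 0.58 and the REST cKO median is -0.74, and for microglia they are 0.05 and 0.32.

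Pan-neuronal and excitatory neuron markers moved with these lists, with which they share members. *Snap25*, *Syn1*, *Tubb3* and *Nefl* are also REST targets, *Syt1* is in the synaptic vesicle list and *Map2* among the tubulins. *Slc17a7* and *Slc17a6* are also in the synaptic vesicle list, so part of the agreement is the same genes counted again. All 8 pan-neuronal markers had negative interactions (median -1.66), as did all 8 excitatory neuron markers (median -1.67). The mean level of the pan-neuronal markers was -0.33, 1.56, 1.16 and 1.35 in WT sham, 1.58, 1.54 and 1.23 in WT SCI day 3, 2.32, 1.61 and 2.35 in REST cKO sham and 1.05, 1.13, 1.42 and 1.41 in REST cKO SCI day 3. REST cKO sham lay above all other libraries, library 3 of WT sham lay lowest, and the day 3 groups overlapped. The 7 measured astrocyte markers were in step, with 6 negative interactions (median -1.29) and mean levels from 1.64 to 2.38 in REST cKO sham against 0.67 to 0.99 in WT sham. *Gja1*, the main gap junction protein of astrocytes (-2.34 ± 0.82), and *Slc1a3*, a glutamate transporter (-1.05 ± 0.48), had an unadjusted p under 0.05. *Gfap* and *Aqp4* were not among the measured genes.

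Microglial markers stood the other way round. Of 12, 10 had positive interactions (median 0.33), and their mean level was 3.10 to 3.28 in WT sham, 3.10 to 3.39 in WT SCI day 3, 2.83 to 3.05 in REST cKO sham and 3.15 to 3.34 in REST cKO SCI day 3. REST cKO sham was below all other libraries. *C1qb*, a complement subunit, and *Ctss* had an unadjusted p under 0.05 (0.85 ± 0.29 and 0.63 ± 0.24), 16.7% of the list. *Ctss* was at 3.88, 3.85 and 4.24 in REST cKO sham and at 4.47, 4.73, 4.41 and 4.56 at day 3. Endothelial and mural markers gave 7 negative interactions of 10 (median -0.62, and -0.16 without library 6 or -1.16 without library 16), with *Slco1a4* (-2.09 ± 0.73), *Tek* (-3.59 ± 1.68) and *Pecam1* (-1.43 ± 0.69) at an unadjusted p under 0.05. Oligodendrocyte markers gave 7 positive of 10 (median 0.19, *Olig1* -3.52 ± 2.12), and deep layer markers 3 positive of 5 (median 0.05). The oligodendrocyte median was -0.25 without library 16 and 0.81 without library 10, and the interaction of the mean level was -0.29. The deep layer median was 1.15 without library 6 and -0.32 without library 27. All 4 measured inhibitory neuron markers were higher in REST cKO than in WT in sham, and 3 of 4 interactions were negative (median -0.87, but -0.18 without library 6 and 0.013 without library 22). In sorted pools, fewer cells of a type and less RNA per cell cannot be told apart, and the part of the marker levels in the neuronal lists was not tested.

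**Figure D4:**
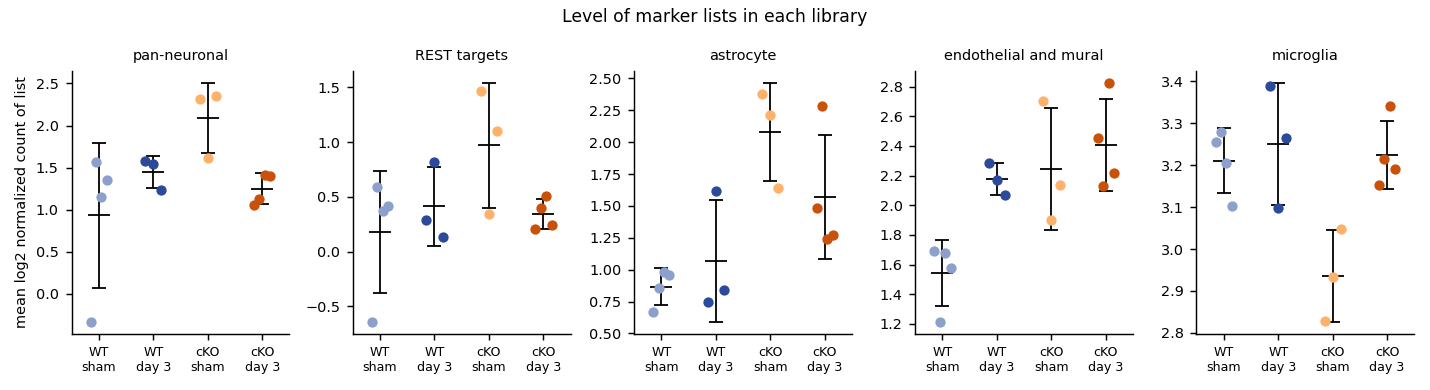
Mean log2 normalized count (y axis) over the members of 5 lists in each of the 14 libraries, with a point per library and the mean ± SD of each group in black. The REST cKO sham libraries lie highest for pan-neuronal markers (1.61 to 2.35) and lowest for microglial markers (2.83 to 3.05).

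Within a batch most groups were single libraries: in batch 1 all but WT sham (2 libraries), and in batch 2 WT SCI day 3 and REST cKO sham. Within-batch values therefore have no error. Taken as the mean level of a list per library, the interaction of REST targets was -0.86 over all batches, -1.57 in batch 1 and -0.32 in batch 2. For pan-neuronal markers the values were -1.36, -2.23 and -0.63. For the synaptic vesicle list they were -0.82, -2.11 and 0.59, and the voltage-gated channels (-1.62 and 0.62) and cAMP signalling (-0.71 and 0.18) also had opposite signs in batches 1 and 2. Of the 11 neuronal lists, 10 were negative over all batches, 11 in batch 1 and 7 in batch 2, where inhibitory neuron markers (0.29) were the other positive list. Deep layer markers were at 0.0053 over all batches. Among 43 list members named for an unadjusted p under 0.05 and not among the 24, the sign differed between batches 1 and 2 in 7: *Grm7*, *Klf2*, *Ephb6*, *Map2k1*, *Rpl5*, *Rps27a* and *Tek*. Of the 17 genes that the study names, described next, 8 had opposite signs in the 2 batches. They were *Rest* (0.56 and -3.33), *Stat3* (-0.10 and 0.61), *Gap43* (0.09 and -1.69), *Basp1* (0.22 and -0.13), *Syt4* (-4.32 and 3.33), *Pcna* (4.79 and -1.16), *Mapkapk2* (0.39 and -0.28) and *Socs3* (-1.17 and 2.24). With a batch term in the model the median of REST targets was -0.89, with a sex term it was -0.92, without library 5 it was -1.03, and with only the 4 groups and the components it was -1.64. Library 6 of REST cKO sham weighed most: without it the median was -0.62 for REST targets, -0.31 for voltage-gated channels and -0.92 for excitatory neuron markers. In sham, REST cKO was all male and WT held 2 males and 2 females.

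The study centres on transcription factors of the regeneration programme, which peripheral neurons switch on after axon injury. Over 29 measured regeneration-associated genes the median interaction was -0.14, 12 were positive, and 1 (*Stmn2*, negative) had an unadjusted p under 0.05, which is 3.45% of the list. Of the 29, 10 correlate with a component, and the median was 0.11 with the components left out. It was -0.38 without library 6 and -0.01 without library 23. Taken as the mean level of the list per library, the interaction was 0.06 over all batches, 0.07 in batch 1 and 0.39 in batch 2.

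*Atf3*, a stress-induced factor of injured neurons, had the largest positive value among these genes. It was at 1.29, 0.29, 0.66 and 0.29 in WT sham and at -1.44, -1.65 and 0.25 in WT SCI day 3. It was at -0.21, -1.04 and 0.20 in REST cKO sham and at 0.54, 0.67, 1.66 and 1.70 in REST cKO SCI day 3. Injured libraries were below sham in WT and above it in REST cKO, and the interaction was 2.84 ± 1.60 (adjusted p = 0.957, limma) with the components and 3.07 from group means. *Jun*, the AP-1 factor of axon injury, was at 2.02, 2.13, 2.02 and 2.82 in WT sham, at 2.10, 2.86 and 1.84 in WT SCI day 3, at 2.80, 2.15 and 2.84 in REST cKO sham and at 3.24, 3.04, 3.77 and 3.39 in REST cKO SCI day 3. The 4 injured REST cKO libraries were above all 10 others, but the interaction was -0.14 ± 0.48 with the components and 0.74 from group means, so its sign is not settled by these values.

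*Sox11*, a factor of developing neurons, was at -0.78, -0.47, -1.11 and -0.60 in WT sham, at 0.42, -0.67 and 0.38 in WT SCI day 3, at -3.57, -0.49 and -2.29 in REST cKO sham and at 1.12, 0.75, 0.51 and 0.88 in REST cKO SCI day 3. *Smad1*, an effector of BMP signals, was at -3.42, -3.22, -0.59 and -0.21 in WT sham, at -1.08, -2.99 and 0.91 in WT SCI day 3, at -1.42, -1.56 and -1.95 in REST cKO sham and at 0.91, 0.85, 0.13 and 0.70 in REST cKO SCI day 3. In both genes the REST cKO groups did not overlap and the WT groups did. Their interactions were 2.06 ± 1.69 and 1.63 ± 1.78, with 2.15 and 1.48 from group means. Without library 6 the value of *Sox11* was -0.01, and without library 16 that of *Smad1* was -0.02. *Stat3*, which carries cytokine signals, was at 2.69, 2.35, 2.44 and 2.91 in WT sham, at 3.33, 3.35 and 2.33 in WT SCI day 3, at 2.50, 2.05 and 3.19 in REST cKO sham and at 3.21, 3.42, 3.25 and 3.01 in REST cKO SCI day 3. The groups overlapped in both genotypes, and the interaction was -0.25 ± 0.46 with the components and 0.24 from group means.

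Among effectors and other genes of the programme, *Gap43*, a growth cone protein, was at 0.09, -0.69, 0.52 and -0.02 in WT sham, at 0.45, 2.74 and 2.00 in WT SCI day 3, at 1.54, 0.95 and 0.84 in REST cKO sham and at 2.39, 0.83, 2.66 and 0.60 in REST cKO SCI day 3. Its interaction was -1.37 ± 1.07, and -0.64 without library 16. *Basp1*, a relative of *Gap43* in function, had -0.04 ± 0.55. *Klf4*, a factor that restrains axon growth, did not overlap between sham and day 3 in either genotype and was higher at day 3 in both, with an interaction of -0.87 ± 0.98 and of -0.54 from group means. *Vav2* (1.77 ± 1.12), *Pcna* (2.16 ± 1.52, group means 0.77), *Atf2* (1.40 ± 1.11, group means 1.10), *Mapkapk2* (0.54 ± 0.59, group means 0.24), *Socs3* (0.41 ± 1.18) and *Syt4* (0.20 ± 2.17) were positive, and *Egr1* (-0.85 ± 0.57, group means -0.46) and *Rapgef4* (-1.84 ± 2.07) negative, all within 2 SE of 0.

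**Figure D5:**
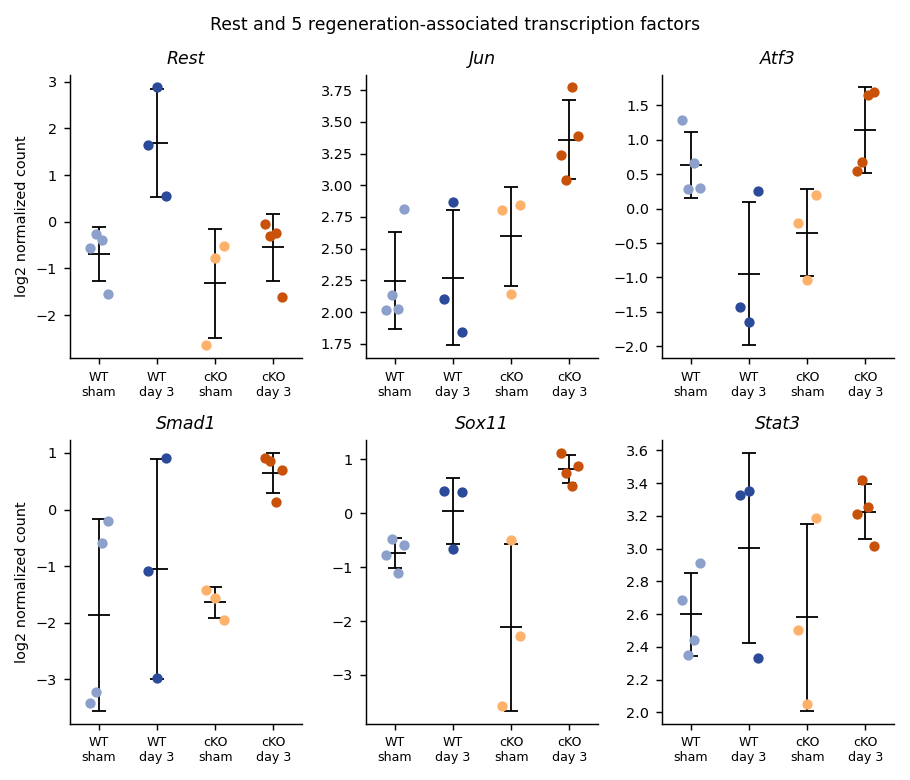
Log2 normalized counts (y axis) of *Rest* and 5 regeneration-associated transcription factor genes in the 14 libraries, with a point per library and the mean ± SD of each group in black. *Jun* lies between 3.04 and 3.77 in REST cKO SCI day 3 and at most at 2.86 in the other groups, and *Atf3* is below sham in WT and above it in REST cKO. Each of the 6 is among the 140 genes set apart above, with a correlation from 0.015 for *Smad1* to 0.37 for *Jun*.

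The corepressors and enzymes that work with REST gave a median of -0.24 over 21 measured genes with 0 at an unadjusted p under 0.05. The smallest p was that of *Ctdsp2* (-1.87 ± 0.92), a phosphatase that stabilises REST. Immediate early genes gave a median of -0.20 over 19, which was -0.49 without library 16 and 0.35 without library 10. *Klf2* (-4.94 ± 1.79) was the member with an unadjusted p under 0.05.

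Stress and survival pathways had medians from 0.16 to 0.30, beside 0.03 over all genes. The oxidative stress response had a median of 0.18 over 35 genes, with *Mt2* and the peroxidase gene *Gpx8* (-5.23 ± 1.84) negative. The unfolded protein response had a median of 0.30 over 31 genes, 19 of them positive. *Eif2ak3*, which encodes the stress kinase PERK, gave -4.50 ± 2.01 and *Dnajb9*, a chaperone of the endoplasmic reticulum, 2.48 ± 1.17. Apoptosis and survival genes had a median of 0.16 over 28, which was -0.25 without library 14 and 0.42 without library 22. Taken as the mean level of this list per library, the interaction was 0.30 over all batches, 0.70 in batch 1 and 0.84 in batch 2. *Pmaip1*, a death-promoting BCL2 relative, was at -0.43, 1.56, 0.21 and 0.21 in WT sham and at -2.83, -2.15 and -1.21 in WT SCI day 3, apart, and overlapped in REST cKO, with an interaction of 3.47 ± 1.48. *Mcl1*, a survival factor of the same family, was at 3.02, 3.10 and 3.20 in REST cKO sham and at 2.44, 2.75, 2.59 and 2.86 at day 3, with an interaction of -0.73 ± 0.33. *Gadd45b*, a stress sensor, gave -4.88 ± 1.77.

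The remaining signalling lists, cAMP aside, had medians from -0.26 to 0.11, which turned sign when single libraries were left out. The MAP kinase cascade had a median of -0.0034 over 40 genes, 20 positive and 20 negative. *Map3k10* (-5.23 ± 1.95), a kinase upstream of JNK, and *Map2k1* (-1.58 ± 0.72), the ERK kinase MEK1, had an unadjusted p under 0.05. Neurotrophin and growth factor genes had a median of -0.26 over 29, with *Vegfb* the member past that level. JAK-STAT and interferon genes had a median of 0.11 over 43, 28 positive, with *Stat5b*, a cytokine-activated transcription factor, at 3.01 ± 1.28. Without library 6 the median of this list was -0.05. Taken as its mean level per library, the interaction was 0.37 over all batches, 0.71 in batch 1 and 0.40 in batch 2.

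Metabolic and housekeeping lists completed the set. Subunits of oxidative phosphorylation had a median of -0.16 over 79, with 50 negative, 5 of them (6.33%) at an unadjusted p under 0.05. *Atp5b*, the catalytic subunit of ATP synthase, was at 2.42, 2.73, 2.86 and 2.76 in WT sham and at 2.97, 3.13 and 3.00 in WT SCI day 3, apart, and overlapped in REST cKO, with an interaction of -1.02 ± 0.39. *Cox7a2* (-1.11 ± 0.48) and *Cox6a1* (-1.27 ± 0.55) of cytochrome oxidase and *Ndufa10* (-2.54 ± 1.21) of complex I went the same way. Cytosolic ribosomal proteins had a median of 0.05 over 78, with *Rps27a* at 0.68 ± 0.29 and *Rpl5*, which correlates with a component, at -3.52 ± 1.42. Translation factors had 0.04 over 47, with the RNA helicase gene *Eif4a1* at 1.35 ± 0.65. Cholesterol synthesis had -0.45 over 23, which became 0.21 without library 6 and -1.0 with only the 4 groups and the components. Its member *Ebp*, a sterol isomerase, was at -2.44, -1.56 and 1.05 in WT SCI day 3 and between 0.66 and 2.60 in the other groups, with an interaction of 3.89 ± 1.31.

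The interaction at day 7 uses the same 7 sham libraries with 3 REST cKO and 3 WT libraries of day 7. The REST cKO ones were all male and the WT ones all female, so that genotype and sex cannot be told apart at that day. The day 7 interaction was 7.17 for *Slc17a5*, 4.84 for *N4bp2l2*, 4.18 for *Aqr* and 1.83 for *Pid1*, beside 6.25, 3.70, 4.18 and 3.26 at day 3. It was -1.18 for *Mapt*, -0.60 for *Olfm1* and -0.58 for *Foxp1*, beside -2.52, -1.79 and -2.0. The median over REST targets was -0.31 at day 7 and -0.95 at day 3, over synaptic vesicle genes -0.08 and -1.11, and over all genes 0.19 and 0.03. Because the sham libraries are shared, values at both days are not independent.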

How the data were processed

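Libraries of small sorted pools were grouped by the labels, with 25 libraries in 8 groups. The authors deposited log2 normalized counts, made by aligning reads to mm10 with STAR, quantifying with Salmon, scaling with DESeq2, removing batch effects with RUV, dropping genes without counts in most samples and regressing out 2 sequencing components. The authors also deposited log2 fold changes and p-values of their own comparisons, which were not used. Read totals are not part of the values, so depth is unknown and no counting error can be given. Of 9955 rows, 24 (0.241%) without a symbol were left out, which left 9931 genes.

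Each gene was fitted with limma 3.58.1 (R 4.3.3) with means of 8 groups and the 2 components over all 25 libraries, empirical Bayes moderation with a trend and Benjamini-Hochberg adjustment. The threshold was an adjusted p of 0.1, and an unadjusted p of 0.05 serves description only. The components stay in the model because the values were already corrected for them. The model was checked on simulated data. Named genes are the 12 smallest p-values in each direction by the rule given in the results, which leaves out pseudogenes. Added to them were the genes the study names, and up to 4 members of each list at an unadjusted p under 0.05, or the member with the smallest p. Members, lists and rules were chosen with earlier results of these data known, and the lists were not tested as sets. Alternatives were the fit without components, the 4 groups alone, a batch or sex term, library weights, a mean of at least 0, no trend, quantile normalization, genes free of a component, an adjusted p of 0.05, and leaving out each of the 14 libraries. List medians under these alternatives and the 4 groups without components were added after the data were seen. Positions are from GENCODE (GRCm38) and promoters from RefSeq (GRCm38.p6). The extraction, age in weeks and depth of single libraries were not analysed here.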

Additional observations from a re-analysis of the deposited data

Results flagged for a closer look

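In 12 genes every sham and day 3 library separated one way in WT and the other way in REST cKO. The difference was not tested beyond the interaction, in which none passed an adjusted p of 0.1 (limma). Such separation also arises by chance with so few libraries per group. The interactions were 2.84 for *Atf3*, 2.07 for *Wdr43*, 4.24 for *Mrm2*, 6.24 for *Vac14* and 3.43 for *Vwa5a*. They were -2.52 for *Mapt*, -4.93 for *Pianp*, -0.94 for *Hsp90ab1*, -4.58 for *Pcdh7*, -5.20 for *Tgfb2*, -3.43 for *Galnt17* and -2.31 for *Tm7sf2*.

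Single libraries stood far from the other 3 of their group, by Dixon's gap-to-range ratio, in 10 of 194 groups of 4 looked at (97 genes, 5.15%), where chance flags about 1 group in 20. In WT sham, library 17 was low for *Erh* (0.992, others 2.18 to 2.25) and high for *Jun* (2.82, others 2.02 to 2.13). Library 10 was low for *Sept8* (-2.84) and *Epha4* (-2.99), and library 3 was high for *Rps27a* (3.32). In REST cKO SCI day 3, library 9 was low for *Socs3* (0.377) and *Ephb6* (-2.97) and high for *Map3k10* (0.729). Library 20 was high for *Nek6* (2.26) and library 27 low for *Rest* (-1.61).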

How the results depend on the processing

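The count of genes past the threshold in the interaction was 0 under the alternatives run, except 1 with only the 4 groups and the components (*Rpl3-ps1*), and it was 0 with each library left out. For WT SCI day 3 against sham the count of 1 became 0 without components, with only the 4 groups (with or without components), with a batch term, library weights, no trend, quantile normalization or an adjusted p of 0.05, and it ran from 0 to 5 with a library left out (5 without library 22). For REST cKO SCI day 3 against sham the count of 2 became 0 without components, with a sex term, no trend or an adjusted p of 0.05, became 1 with a batch term, a mean of at least 0 or only the 4 groups without components, and ran from 0 to 12 with a library left out (12 without library 23). Of 2394 gene values under alternatives, 2367 kept the sign and 0 passed the threshold. Reversed were *Jun* (0.74 without components, also with the 4 groups alone, and 0.016 with a sex term), *Stat3* (0.24 without components in both fits), *Syt4* (-1.21 with the 4 groups and components, -1.20 with a sex term) and *Basp1* (0.14 with a sex term, 0.11 with quantile normalization). With a library left out, signs also turned for *Rest* (-1.37 to 1.09), *Jun* (-0.51 to 0.18), *Smad1* (-0.016 to 2.45), *Sox11* (-0.0073 to 2.27), *Stat3* (-0.78 to 0.0017), *Basp1* (-0.17 to 0.26), *Syt4* (-1.32 to 2.49) and *Socs3* (-0.36 to 1.51). Causes were not tested. Of 28 list medians, 16 kept 1 sign throughout. REST targets ran from -1.64 to -0.62, pan-neuronal markers from -1.84 to -1.19 and microglial markers from 0.23 to 0.52. The median of deep layer markers ran from -1.82 to 1.15. No paired analysis was possible because each library number in the labels is unique.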
